A study of Mus musculus with 2 samples.

Results

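Annexins and the S100 proteins that bind them were followed through the profiles of 2 single mouse cells. The group was defined by name as 10 genes, the annexins Anxa1, Anxa2, Anxa5, Anxa6 and Anxa7 and the S100 genes S100a1, S100a6, S100a10, S100a11 and S100a13. Of these, 9 had at least 1 probe set that the array annotation gives to a single gene symbol, with 20 probe sets in all, out of 34958 such probe sets for 18194 named genes. The genes were chosen with the signals of these cells known, so their values are given as a description, with no statistical test.

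One cell, called the newborn cell here, was picked by capillary from papain-dissociated retina of a CD1 mouse on the day of birth (P0). The other, called the embryonic cell, was taken the same way from CD1 retina of the embryonic stage E12.5. CD1 is an outbred albino strain, and neither label names a transgene or a treatment. Both cells were labelled ciliary body, the epithelium at the rim of the optic cup that later secretes aqueous humour, an assignment that the submitters made from the expression profiles themselves. Each age had 1 cell and 1 array, so there was no replicate, no error and no p-value, and every difference below is between these 2 cells. Age, animal, cell and array cannot be told apart.

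Annexins are cytosolic proteins that bind acidic membrane lipids when calcium rises. Each has a conserved core of repeats that holds the calcium sites and a variable amino-terminal tail. S100 proteins are small EF-hand proteins that pair up and grip the tails of particular annexins, S100a10 that of annexin A2 and S100a11 that of annexin A1. S100a10 is unusual in the family because it holds its binding shape without calcium. The pair of S100a10 with annexin A2 links membranes to cortical actin, carries channels to the cell surface and binds plasminogen, and annexins are also recruited to torn plasma membrane.

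Values are MAS5 signals, the linear intensity per probe set after the authors' scaling of each array. A signal was called above background when it exceeded the 99th percentile of 177 probe sets for gene families not known to act in the eye, which was 349 in the newborn cell and 257 in the embryonic cell. To be called higher in a cell, a gene had to be above background there and exceed the other cell at least 4-fold, with any signal below its limit first raised to that limit. With the dimmer signal below its limit, such a fold is a lower bound, marked "at least". A gene below its limit was not detected, which does not show that it was not transcribed, since cDNA from 1 cell can miss a transcript. Of all named genes, 28.4% were above background in the newborn cell, 30.3% in the embryonic cell, 18.7% in both and 60% in neither, and each gene was represented by its brightest probe set.

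Of the 9 measured genes, 4 were above background in the newborn cell (Anxa2, Anxa5, Anxa6 and S100a10) and 2 in the embryonic cell (Anxa5 and Anxa6). S100a10 and Anxa2 were called higher in the newborn cell, where 9.24% of all named genes were called higher. Anxa6 was called higher in the embryonic cell, where 7.3% of all named genes were. Of all calls in either direction 55.9% were higher in the newborn cell, against 33.2% after scaling to the spiked-in hybridisation controls, which moved the median log2 ratio of genes above background in both cells to -0.86. The 4 genes above background in at least 1 cell had a median log2 ratio, newborn over embryonic, of 1.84, against 0.02 for the 7274 named genes of that kind. With 4 genes that lie on both sides of 0, this median describes none of them.

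**Figure D1:**
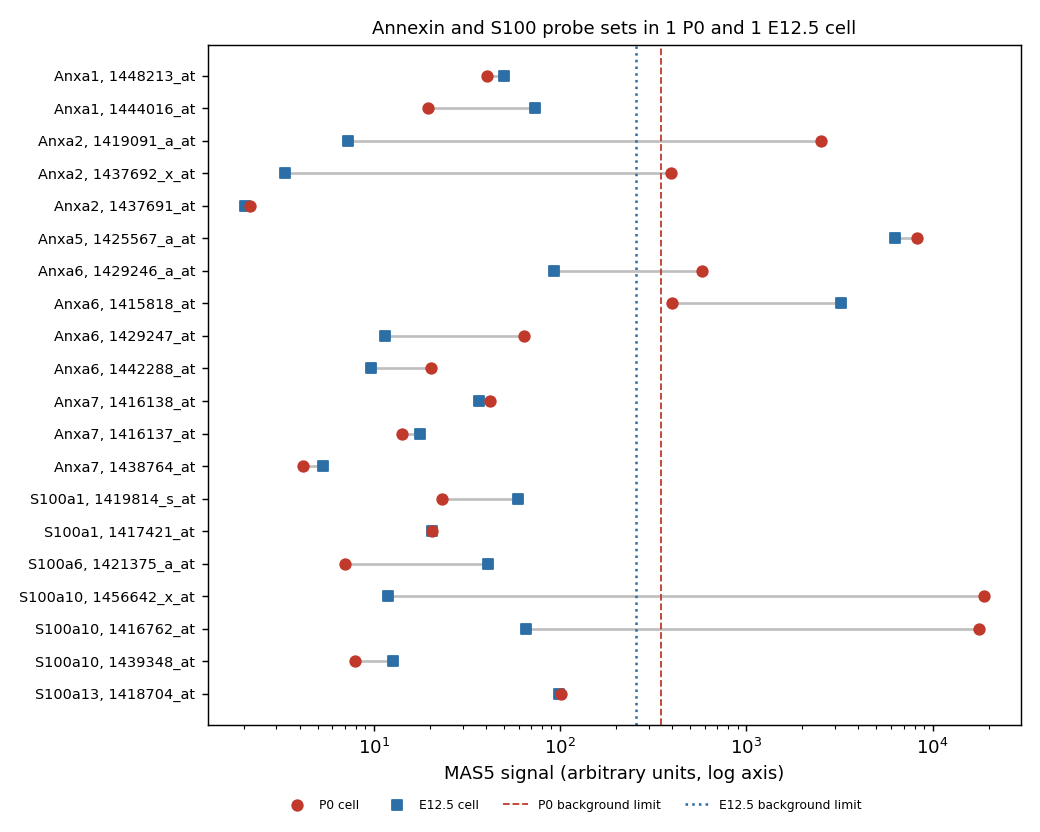
MAS5 signal on a log axis of the 20 probe sets of 9 annexin and S100 genes, with the newborn (P0) cell as circles, the embryonic (E12.5) cell as squares and each cell's background limit as a vertical line. A total of 7 probe sets exceeded the limit in the newborn cell (22.4% of all probe sets with 1 symbol did) and 2 of these also did in the embryonic cell (24.1%), while 13 lay below it in both, and the probe sets of Anxa6 point in both directions.

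S100a10, also called p11, was above background in the newborn cell alone. Its 3 probe sets had signals of 18785, 17822 and 7.90 in the newborn cell, against 11.9, 65.4 and 12.7 in the embryonic cell. The first pair of probe sets, both bright in the newborn cell and both far below background in the embryonic cell, exceeded the embryonic limit at least 73.0-fold and at least 69.3-fold in the newborn cell. The first of them carries the suffix _x_at, which marks possible binding of other transcripts, and the second carries no such suffix. The remaining one, annotated from an expressed sequence tag, was below background in both cells. For scale, log2 ratios of probe sets of the same gene varied with an SD of 0.83 over 975 genes, against at least 6.11 for S100a10. That SD was taken only from probe sets above background in both cells. S100a10 is therefore not among its genes, and silent probe sets such as the third of S100a10 are left out. That SD also holds no variation between cells.

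Anxa2 encodes the annexin that S100a10 binds, and it was likewise above background in the newborn cell alone. Its 3 probe sets had signals of 2508, 397 and 2.16 in the newborn cell, against 7.26, 3.34 and 2.03 in the embryonic cell. The brightest gave at least 9.75-fold higher signal in the newborn cell. The next one lay just above the newborn cell's limit and gave at least 1.54-fold, a weak bound because the signal there itself was close to background. The third was below background in both cells. The brightest carries the suffix _a_at, which on arrays of this type marks probes shared by transcripts of 1 gene, and the next one the suffix _x_at. Without the suffixes _x_at and _s_at the Anxa2 call was the same, while without _a_at as well Anxa2 had no signal above background in either cell.

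S100a11, the partner of annexin A1, was represented only by a probe set that the annotation also gives to the pseudogene S100a11-ps and to Gm12854, so no value was assigned to it. RefSeq places S100a11 next to S100a10 on the chromosome. Anxa1 itself, known for limiting inflammation, was not detected in either cell, with signals of 40.7 and 19.6 in the newborn cell, against 50.3 and 73.8 in the embryonic cell. Fpr2, a receptor for annexin A1, had a signal of 1.44 in the newborn cell and 5.56 in the embryonic cell, also below background.

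Anxa5, whose protein binds phosphatidylserine and is used to stain dying cells, was well above background in both. Its single probe set had a signal of 8244 in the newborn cell and 6275 in the embryonic cell, a 1.31-fold ratio that is small beside the disagreement between probe sets of a gene. This probe set also carries the suffix _a_at, and Anxa5 had no value without it. The log2 ratio was 0.39 as deposited and -0.47 with the arrays scaled to the spike-ins, so no direction is given.

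Anxa6, a large annexin with a doubled core that sits on endosomes and the plasma membrane, gave opposite answers from different probe sets. Its 4 probe sets had signals of 398, 580.0, 64.1 and 20.3 in the newborn cell, against 3235, 93.3, 11.5 and 9.61 in the embryonic cell. The first, which stood for the gene, was above background in both cells and 8.12-fold higher in the embryonic cell. The second was above background in the newborn cell alone and at least 2.25-fold higher there, under the 4-fold threshold. The other two were below background in both cells. Of 2566 genes with at least 2 probe sets above background that leaned to a side, 730 (28.4%) had probe sets leaning to opposite sides. A lean of any size was counted, so this share does not say how often a conflict as large as that of Anxa6 occurred. Because its own probe sets disagreed, the call for Anxa6 holds for 1 probe set and not for the gene as a whole.

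The remaining members were below background in both cells on every probe set. They were Anxa1, Anxa7, whose product was first described as the membrane-fusing protein synexin, S100a1, which tunes calcium cycling in muscle, S100a6, also called calcyclin, and S100a13, which takes part in the release of signal proteins that lack a secretion signal. Their 9 probe sets had signals between 4.19 and 101 in the newborn cell and between 5.36 and 98.5 in the embryonic cell. The brightest of them belonged to S100a13, with 101 in the newborn cell and 98.5 in the embryonic cell. Under the lower newborn limits tried, 90.4 and 93.9, S100a13 was above background in the newborn cell. S100a6 had a signal of 7.03 in the newborn cell and 41.2 in the embryonic cell on its only probe set. No ratio is given for these genes, since values below the limit have no order.

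Promoter windows of 250 bases before and 50 after the annotated start were taken from RefSeq on GRCm38.p6 and were matched for 8 of the 10 genes, with 9 windows because Anxa7 has a pair. S100a10 and Anxa6 were not among the genes matched. The windows of Anxa2 (chr9:69453433-69453732, plus strand), Anxa5 (chr3:36475838-36476137, minus strand) and S100a6 (chr3:90612644-90612943, plus strand) are shown because these genes were above background in the newborn cell alone, in both cells and in neither. Capitals mark matches on either strand to 5 motifs. The AP-1 motif was searched as TGANTCA. The core of the hypoxia response element was searched as ACGTG, which overlaps the E-box because that palindrome holds it on both strands. The GC box of Sp1 factors was searched as GGGCGG. The TATA box was searched as TATAAA. The site of the factor NF-Y was searched as CCAAT.
Anxa2: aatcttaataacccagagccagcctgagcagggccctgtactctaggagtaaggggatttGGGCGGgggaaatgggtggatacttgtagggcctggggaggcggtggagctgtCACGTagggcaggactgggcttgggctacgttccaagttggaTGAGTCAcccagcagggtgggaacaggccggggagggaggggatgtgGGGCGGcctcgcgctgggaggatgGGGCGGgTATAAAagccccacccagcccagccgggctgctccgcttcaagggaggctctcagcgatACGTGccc
Anxa5: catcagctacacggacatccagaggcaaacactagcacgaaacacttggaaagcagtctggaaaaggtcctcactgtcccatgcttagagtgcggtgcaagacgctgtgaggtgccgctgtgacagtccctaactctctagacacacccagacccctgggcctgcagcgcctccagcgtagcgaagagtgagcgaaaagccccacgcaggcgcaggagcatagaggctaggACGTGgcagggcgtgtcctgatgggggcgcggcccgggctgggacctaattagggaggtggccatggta
S100a6: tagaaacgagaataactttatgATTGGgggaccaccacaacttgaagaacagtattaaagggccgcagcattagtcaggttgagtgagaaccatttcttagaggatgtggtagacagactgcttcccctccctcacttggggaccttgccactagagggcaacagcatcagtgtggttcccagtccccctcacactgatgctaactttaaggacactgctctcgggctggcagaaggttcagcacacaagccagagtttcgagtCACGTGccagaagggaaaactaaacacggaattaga

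The Anxa2 window held 1 match to the AP-1 motif, 2 to the hypoxia core, 3 to the GC box and 1 to the TATA box. The Anxa5 window held 1 match to the hypoxia core and 0 to the others. The S100a6 window held an E-box, which counts as a hypoxia core on each strand, and 1 NF-Y site. Of all 32851 windows, 7.81% held the AP-1 motif, 19.6% the hypoxia core, 35.7% the GC box, 13.6% the TATA box and 37.4% the NF-Y site. Among the 9 windows, the AP-1 motif was found in those of Anxa2 and S100a11 alone. The matches are letters in a window and were not set against any measurement of binding. The windows of S100a1 and S100a13, which start on opposite strands beside each other, share 204 bases, and both genes were below background in both cells.

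Of 6 other annexins with a probe set of 1 symbol, 0 were called higher in either cell (9.24% and 7.3% of all named genes were). Anxa4, an annexin of secretory epithelia, was above background in the embryonic cell, and no other was in either cell. Its 3 probe sets had signals of 52.6, 28.9 and 7.39 in the newborn cell, against 1028, 16 and 60.2 in the embryonic cell, and the first gave at least 2.95-fold higher signal in the embryonic cell. Anxa3, Anxa8, Anxa9, Anxa10 and Anxa13 were below background in both cells.

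Of 9 other S100 genes, 1 was called higher in the newborn and 0 in the embryonic cell, against 9.24% and 7.3% of all named genes. S100b, a marker of astrocytes and other glia, had signals of 4787 and 2461 on its 2 probe sets in the newborn cell, against 11.6 and 2.04 in the embryonic cell, a fold of at least 18.6 and of at least 9.57 in favour of the newborn cell. S100a16, a broadly expressed member of the family, had signals of 624 and 437 in the newborn cell, against 125 and 51.4 in the embryonic cell, at least 2.43-fold and at least 1.70-fold. Both of its probe sets were above background in the newborn cell alone but under the 4-fold threshold. S100a3, S100a4, S100a5, S100a8, S100a9, S100a14 and S100g were below background in both cells. Among these, S100a4 is a marker of motile fibroblasts, and S100a8 and S100a9 encode the calprotectin subunits of neutrophils.

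**Figure D2:**
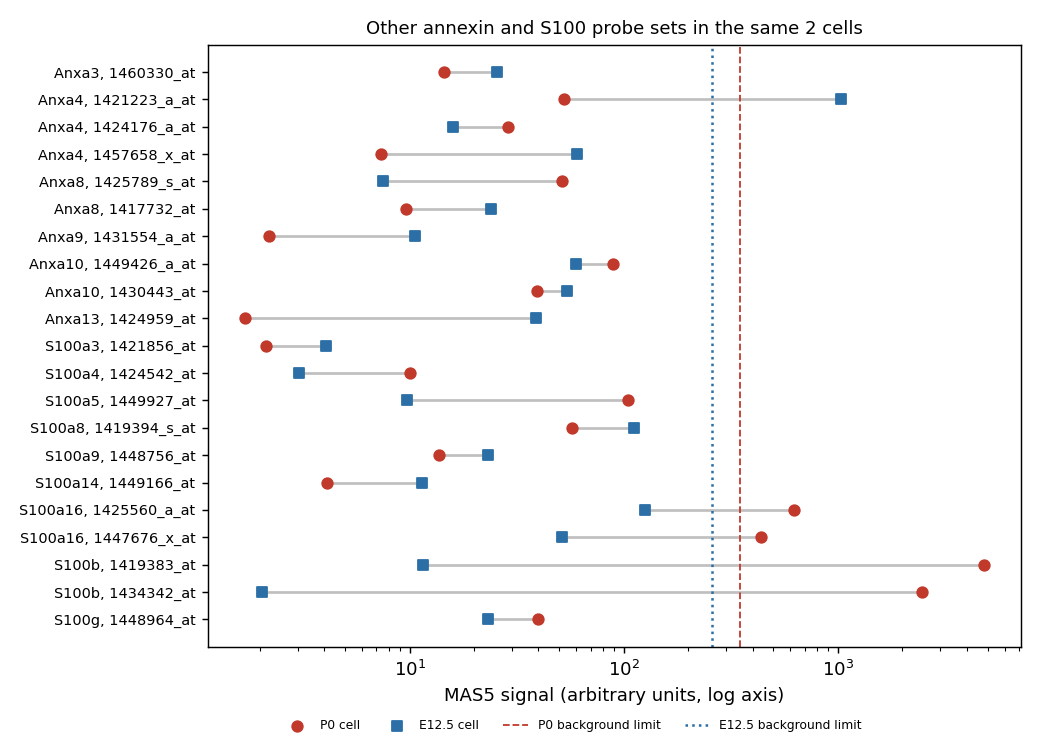
MAS5 signal on a log axis of the probe sets of 6 other annexins and 9 other S100 genes, with the newborn (P0) cell as circles, the embryonic (E12.5) cell as squares and each cell's background limit as a vertical line. S100b and S100a16 exceeded the limit in the newborn cell alone on both of their probe sets, and 1 probe set of Anxa4 did so in the embryonic cell alone.

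Genes for proteins that bind annexins and S100 proteins were called at shares close to those of all named genes. Of 18 measured partners and receptors, 6 were above background in each cell and 4 in both. In all, 1 (5.56%) was called higher in the newborn cell and 2 (11.1%) in the embryonic cell, against 9.24% and 7.3% of all named genes. Dlc1, whose product S100A10 binds in human cells, had a signal of 14514 in the newborn cell and 3.04 in the embryonic cell, at least 56.4-fold higher in the newborn cell. One of its 3 further probe sets was above background in the newborn cell and was also called higher there. The serotonin receptor gene Htr1b, another partner of S100a10, had a signal of 746 in the newborn cell and 3.63 in the embryonic cell, under the threshold at 2.90-fold or more. Hltf, a chromatin remodeller bound by the S100a10 and annexin A2 complex, had a signal of 21.4 in the newborn cell and 1776 in the embryonic cell, at least 5.09-fold higher in the embryonic cell. Of the 2 further Hltf probe sets, 1 was above background in the embryonic cell, and neither was called. The giant scaffold gene Ahnak, which the same complex anchors at the membrane, was below background in both cells, with 11.9 in the newborn cell and 85.7 in the embryonic cell.

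Several partners of members that were not detected were themselves above background. The calcyclin-binding protein gene Cacybp had a signal of 3062 in the newborn cell and 5529 in the embryonic cell. Pdcd6, which encodes the calcium sensor ALG-2 that binds annexin A7, had 2521 in the newborn cell and 6238 in the embryonic cell. Sri, which encodes sorcin, another annexin A7 partner, had 3618 in the newborn cell and 3048 in the embryonic cell. All of these differed by less than 4-fold, although a second Sri probe set was at least 4.96-fold higher in the newborn cell. Sugt1, a co-chaperone gene whose product binds S100A6, was 8.25-fold higher in the embryonic cell on the probe set that stood for it (398 in the newborn cell and 3280 in the embryonic cell), while its second probe set was at least 4.72-fold higher in the newborn cell (1213 in the newborn cell and 152 in the embryonic cell).

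Genes of plasminogen activation showed no call in either direction among 6 measured (9.24% and 7.3% of all named genes were called). Plat, which encodes tissue plasminogen activator, had a signal of 1788 in the newborn cell and 1059 in the embryonic cell, and the plasminogen receptor gene Plgrkt had 1917 in the newborn cell and 2307 in the embryonic cell. Plg, Plau, Plaur and Serpinf2 were below background in both cells.

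Of 11 membrane repair genes, 2 were called higher in the newborn and 0 in the embryonic cell, against 9.24% and 7.3% of all named genes. The 2 were Chmp4b, an ESCRT-III filament subunit (3496 in the newborn cell and 76.1 in the embryonic cell, at least 13.6-fold), and Pdcd6ip, the ESCRT adaptor ALIX (1389 in the newborn cell and 91.8 in the embryonic cell, at least 5.40-fold). The second probe set of Chmp4b was also called higher in the newborn cell, as was 1 of 4 further probe sets of Pdcd6ip, while another lay above background in the embryonic cell alone. The calpain genes Capn2 (11992 in the newborn cell and 8189 in the embryonic cell) and Capns1 (2568 in the newborn cell and 3040 in the embryonic cell) differed by less than 4-fold. Dysf and Myof, the ferlins that act with annexins at membrane wounds, were below background in both cells, as were Capn1, Trim72, Cav1, Cavin1 and Ehd2.

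Other EF-hand calcium sensors, which act in the cytosol and the secretory pathway, were mostly above background. Of 12 measured, 10 were above background in the newborn cell and 7 in the embryonic cell, against 28.4% and 30.3% of all named genes. In all, 3 were called higher in the newborn cell and 1 in the embryonic cell, against 9.24% and 7.3% of all named genes. Nucb2, which encodes nucleobindin 2 (2851 in the newborn cell and 42.7 in the embryonic cell), was at least 11.1-fold higher in the newborn cell. The grancalcin gene Gca (2247 in the newborn cell and 34.1 in the embryonic cell) was at least 8.73-fold higher in the newborn cell. The calumenin gene Calu (7273 in the newborn cell and 1474 in the embryonic cell) was 4.93-fold higher there. Sdf4, a Golgi calcium-binding protein gene, had a signal of 786 in the newborn cell and 12791 in the embryonic cell, 16.3-fold higher in the embryonic cell. Its 2 further probe sets were below background in both cells, as was the further probe set of Calu. The further probe set of Gca was above background in the newborn cell alone and under the threshold. Rcn1 and Rcn2, which encode reticulocalbins of the secretory pathway, Hpcal1, Nucb1 and Pef1 were above background in both cells and differed by less than 4-fold, by between 1.03-fold for Hpcal1 and 2.41-fold for Pef1.

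**Figure D3:**
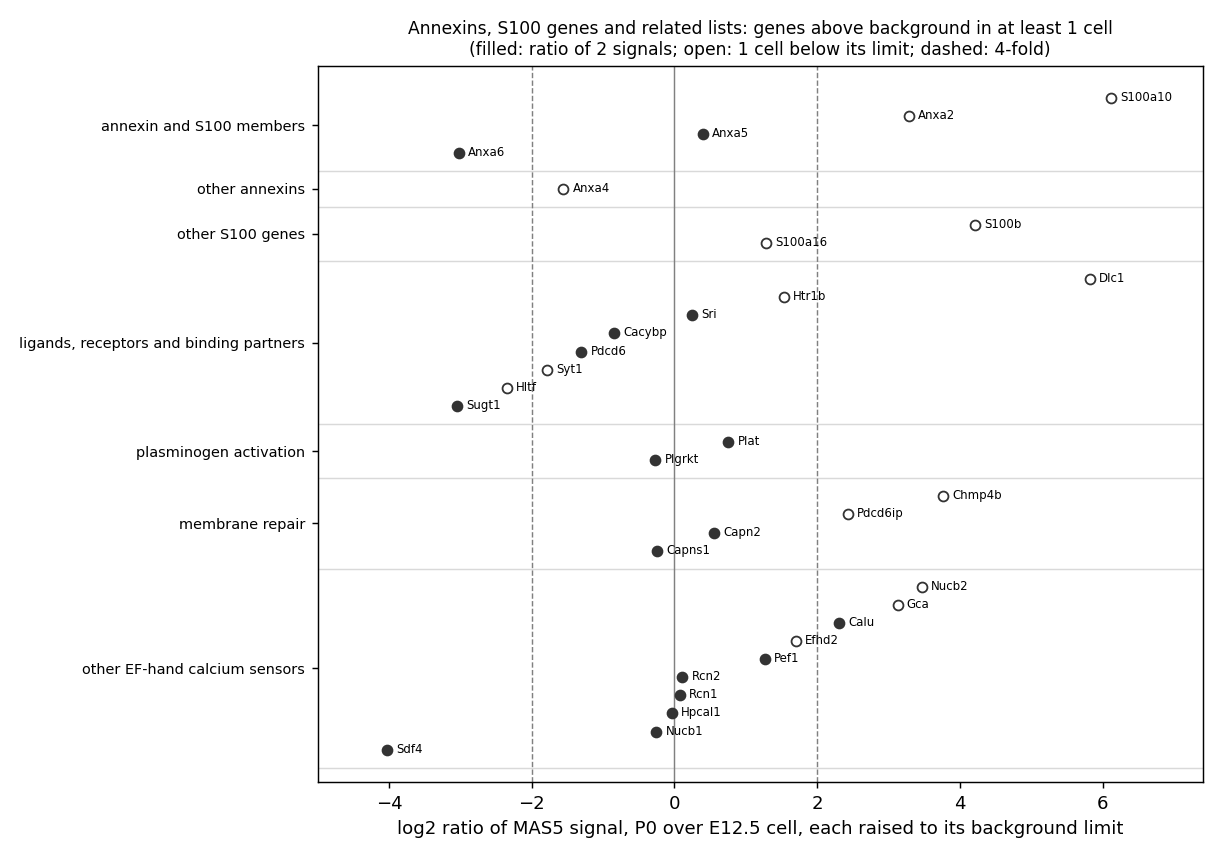
Log2 ratio of MAS5 signal, newborn (P0) over embryonic (E12.5) cell, for genes of the annexin and S100 group and of 6 related lists that were above background in at least 1 cell, with open circles where 1 cell was below its limit and dashed lines at 4-fold. S100a10 at 6.11 and Dlc1 at 5.82, both plotted at lower bounds, lie farthest to the newborn side, and Sdf4 at -4.02, Sugt1 at -3.04 and Anxa6 at -3.02 to the embryonic side.

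In the 6 related lists together, 7 of 62 measured genes were called higher in the newborn cell and 3 in the embryonic cell, or 11.3% and 4.84%, against 9.24% and 7.3% of all named genes. Their median log2 ratio was 0.25 over the 27 genes above background in at least 1 cell. Neighbours on the chromosome were called at shares close to those of all named genes: of 65 measured genes among the 5 nearest protein-coding genes on each side, 10.8% were called higher in the newborn cell and 6.15% in the embryonic cell. Called higher in the newborn cell were Snapin, near S100a1 and S100a13 (at least 7.0-fold), Bnip2, near Anxa2 (at least 4.62-fold), Zfand5, near Anxa1 (6.23-fold), Gm2a, near Anxa6 (4.43-fold), and Ecd, Fam149b and Ppp3cb, near Anxa7 (8.19-fold, 5.99-fold and 9.83-fold). Ice2, directly beside Anxa2, was 4.14-fold higher in the embryonic cell, and the retinaldehyde dehydrogenase gene Aldh1a1, directly beside Anxa1, at least 34.3-fold, as were Mrps16 and Usp54, near Anxa7, by 4.64-fold and by at least 7.36-fold. Neighbours of Anxa1, Anxa2 and Anxa7 were thus called in both directions. Each neighbour was called on 1 probe set, and any further probe sets of the called neighbours were not compared.

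Markers of the labelled region were partly present: 8 of 20 ciliary margin genes were above background in the newborn cell and 9 in the embryonic cell, and 9 in neither, the Wnt targets Axin2 and Lef1 and the ciliary body regulator Bmp4 among them. For comparison, 28.4% of all named genes were above background in the newborn cell and 30.3% in the embryonic cell. The shares of all named genes called higher there were 9.24% and 7.3%. Bmp7 and Sox9 were called higher in the newborn cell, and Cdon, Wfdc1, Otx1, Gja1 and Mecom in the embryonic cell, while Zic1, Zic2, Ccnd2 and Rdh10 were above background in both and under the threshold. Of 10 retinal progenitor genes, 8 were above background in the newborn cell and 10 in the embryonic cell. Lhx2 was called higher in the newborn cell, Pax6, Hes1, Ccnd1, Fgf15 and Sfrp2 in the embryonic cell, and Six3, Six6, Rax and Sox2 in neither. Of 9 pigment cell genes, 0 were above background in the newborn cell and 2 in the embryonic cell, Trpm1 (at least 18.1-fold) and Rab38 (at least 6.58-fold). The ganglion cell gene Gap43 was called higher in the embryonic cell, and the lens gene Cryba2 was above background there alone. Since S100a10 and Anxa2 are also expressed by glia, fibroblasts and vessel cells, markers of those cells were set beside them. S100b is itself in the glial list and is part of that list's counts and sum. Of 11 astrocyte and Müller glia genes, 9 were above background in the newborn cell and 5 in the embryonic cell. In the newborn cell 4 were called higher (Rlbp1, S100b, Car2 and Gfap). Slc1a3, Glul, Clu, Dkk3 and Vim were above background in both and under the threshold, and Aqp4 and Apoe were below background in both. Over all 11 glial genes the summed signal was 81180 in the newborn cell and 53638 in the embryonic cell. Those sums include Rlbp1, with 16125 in the newborn cell and 31.1 in the embryonic cell. Of 10 mesenchymal genes, Col1a2 and Pdgfra were called higher in the newborn cell and 0 in the embryonic cell. Col1a1, Col3a1, Dcn, Lum, Pdgfrb, Twist1, Prrx1 and Foxc1 were below background in both. The mesenchymal sums, 6210 in the newborn cell and 659 in the embryonic cell, were not compared. Every signal in the embryonic sum was below the limit. Of 11 vascular genes only Rgs5 was above background, in the newborn cell (833 in the newborn cell and 47.9 in the embryonic cell), and Pecam1 and Cdh5 were below it. The vascular sums, 1546 in the newborn cell and 703 in the embryonic cell, were not compared. Every signal in the embryonic sum was below the limit, as was every signal but that of Rgs5 in the newborn sum. All 11 microglial genes were below background in both cells. The part of these cell types in the S100a10 and Anxa2 signals was not tested.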

How the data were processed

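Gene expression was measured in 2 single mouse cells, 1 at P0 and 1 at E12.5, each on 1 array. Per the labels' protocols, mRNA was reverse transcribed from oligo dT, tailed and amplified by PCR, which favours the 3' ends of transcripts and can lose rare ones. The deposited values are linear intensities, 1 for each probe set, which the authors computed with MAS5, per the submitters' processing notes. The method corrects for mismatch probes and scales every array separately. For its version, settings and detection calls, the sources used here give nothing. The number of arrays limits the precision, and read depth does not apply.

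Of 45101 probe sets, 34958 had 1 gene symbol, 932 had several and 9211 were not listed in GEO's platform annotation. Symbols were updated by gene identifier from a RefSeq table (GRCm38.p6) for 34754 probe sets. Each gene was represented by its brightest probe set (mean log2 signal). The background limit was the 99th percentile of 177 probe sets for caseins, chemosensory receptors, major urinary proteins, protamines, prolactin relatives, intestinal defensins, zona pellucida proteins and keratin-associated proteins. The design named these families and others like them, and the families used were settled after the values had been seen. Genes named are all members, members of related lists called or above background in both cells, markers above background, and called neighbours. A few genes below background, or above it in 1 cell, were named in addition. Members and lists were chosen with earlier results of these data known. The calling rule was tested on simulated data with known changes, which checks its arithmetic and gives no error rate for these cells. Python 3.11.15, numpy 2.4.6, pandas 2.3.3 and matplotlib 3.10.9 were used.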

Additional observations from a re-analysis of the deposited data

Results flagged for a closer look

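Probe sets with several gene symbols were left out of the comparisons. Among them, 2 name an annexin or a numbered S100a gene, and the signal of both exceeded background. The probe set shared by S100a11, its pseudogene S100a11-ps and Gm12854 had a signal of 2786 in the newborn cell and 233 in the embryonic cell, at least 10.8-fold higher in the newborn cell. The probe set shared by Anxa11, Gm2260 and Gm2274 had a signal of 5132 in the newborn cell and 340 in the embryonic cell, 15.1-fold higher in the newborn cell. The annotation does not say which of the 3 symbols of each gave the signal.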

How the results depend on the processing

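S100a10 was past the fold threshold in all 11 alternatives, with log2 ratios between 2.43 and 7.33, Anxa2 in 8 and Anxa6 in 9. In the other alternatives Anxa2 and Anxa6 had no usable fold, and the same alternatives cost other calls. Some of the passes were fixed in advance. The 2-fold and 8-fold thresholds leave the log2 ratios as they were, and leaving out _x_at and _s_at alone kept the same probe sets for these genes. Every pass of Anxa6 rests on the probe set that stood for it, which another of its probe sets contradicts. With casein kinases, which most cells express, kept among the background genes, 2 members were above background in the newborn cell, 1 was called higher there and 0 in the embryonic cell. The median log2 ratio was then 0.65, the value of Anxa6 with its newborn signal of 398 raised to a limit of 5088. The embryonic signal of Anxa6 was 3235, so this median gives no direction. Related genes called fell to 1 in the newborn and 0 in the embryonic cell, neighbours to 0 and 0, and all named genes to 24 and 6. With the mean over probe sets, 2 members were above background in the newborn cell and 1 in the embryonic cell. Of the members, 1 was called higher in the newborn cell and 0 in the embryonic cell. Related genes called were 5 in the newborn and 0 in the embryonic cell, neighbours 0 and 6, and named genes 863 and 700. Without probe sets of the suffixes _x_at, _s_at and _a_at, 2 members were above background in the newborn cell and 1 in the embryonic cell. Of the members, 1 was called higher in the newborn cell and 1 in the embryonic cell, with 1459 and 1136 named genes. Without _x_at and _s_at alone, a setting chosen after seeing the data, the members' counts were those of the report, with 1621 and 1305 named genes. Under each lower limit, the 95th percentile and that of bacterial controls, the median was 0.39, and 5 members were above background in the newborn cell. The added member was S100a13. A lower limit also admits other genes. For none of the alternatives was the share of all named genes above background computed, so the members' counts above background cannot be set against it. Under both lower limits, 10 related genes were called higher in the newborn cell and 5 in the embryonic cell, with 8 and 7 neighbours. Named genes called were 2005 and 2013 at the 95th percentile, and 2006 and 2004 with bacterial controls. Scaled to the spike-ins, the median was 0.97. Related genes called were then 5 in the newborn and 6 in the embryonic cell, neighbours 2 and 6, and named genes 1049 and 2115. With a pseudocount of 100 and no limit, the median over 9 members was 0.019. Related genes called were 8 in the newborn and 5 in the embryonic cell, neighbours 7 and 5, and named genes 1907 and 1894. At 2-fold, 11 related genes were called in the newborn cell and 6 in the embryonic cell, with 9 and 8 neighbours. Named genes called were then 2480 and 2282. At 8-fold, 2 neighbours were called in the newborn cell and 1 in the embryonic cell, with 939 and 583 named genes. Quantile normalisation moved none of these counts by over 1.5 times. The cause was not tested, apart from what each setting leaves out by construction. No paired analysis was possible because each age had 1 cell.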
